A study of Mus musculus with 8 samples.

Results

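The GATA designed probes are a family of printed DNA oligonucleotides that carry binding sites, or altered sites, of GATA transcription factors. They were taken as every spot with a printed sequence whose name contains GATA, and the spots of each sequence were averaged. The names gave 350 different sequences on 2620 spots, of 122095 sequences on 175866 spots on each array. They form 2 sets. The listed sites are 194 sequences on 1000 spots, named by a running number, with the reverse orientation marked rev; a count of 194 sequences describes this set alone. The variant series are 162 sequences on 1620 spots, in which each base of 3 sites was changed in turn to each of the other bases; 6 sequences belong to both sets. In 112 of the 350 sequences some spots carry a name without GATA, and these spots were included. A sequence had between 5 and 21 spots, with a median of 6.

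The study, UV-Bind, stained DNA arrays with mouse antibodies against lesions left in DNA by ultraviolet light, and its stated purpose was to measure antibody signal for short sequences. The anti-cyclobutane pyrimidine dimer antibody (CPD antibody, used at 1:400) and the anti-6-4 photoproduct antibody (6-4PP antibody, used at 1:80) were each read on 2 arrays labelled UV and 2 labelled Non-UV, with Alexa 488 as the dye. The 8 arrays therefore form 4 groups of 2, with no animal, cell line or genotype behind them. The sources used here do not state the UV dose, the staining steps or how a second strand was synthesised.

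GATA factors are zinc finger transcription factors that direct blood, heart and endoderm development. They bind the sequence GATA, best between a preceding A or T and a following A or G, so the opposite strand reads TATC and is rich in pyrimidines. Ultraviolet light links neighbouring pyrimidines of a strand. A CPD joins them through a ring, most readily at TT, and a 6-4PP through a single bond, most readily at TC and TT. The sequence of a GATA site places a TC step on one strand and, where an A follows GATA, a TT step beside it.

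The 3 sites of the variant series are shown first because all positions below refer to them. Each was printed in both orientations, and capitals mark the 9-base site within the 27 bases that vary between probes; the remaining 33 of the 60 printed bases are shared. The unmutated sites were not printed under a GATA name, and the sequences below come from single spots of the universal part of the array, some with flanks shifted by 1 base or more.
site 1, pyrimidine strand printed: tatgcaCCTTATCTGtatgtatgcacg
site 1, GATA strand printed: cgtatgCAGATAAGGtatgtatgcacg
site 2, pyrimidine strand printed: gtatgCGTTATCACgtatgtatgcacg
site 2, GATA strand printed: gtatgcGTGATAACGtatgtatgcacg
site 3, pyrimidine strand printed: tatgcACCTATCACgtatgtatgcacg
site 3, GATA strand printed: cgtatgcGTGATAGGTatgtatgcacg

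A change is written as the base of the pyrimidine strand, its position counted from 1 at the 5′ end of the 9 bases on that strand, and the new base; on a probe that prints the GATA strand the printed base is its complement. The variants below are shown because the results on the variant series turn on them, and capitals mark the changed base.
site 2 C7T, pyrimidine strand printed: atgcacgttatTacgtatgtatgcacg
site 1 C2A, pyrimidine strand printed: tatgcacAttatctgtatgtatgcacg
site 1 C2G, pyrimidine strand printed: tatgcacGttatctgtatgtatgcacg
site 2 T4A, GATA strand printed: gtatgcgtgatTacgtatgtatgcacg
site 2 T4G, pyrimidine strand printed: atgcacgtGatcacgtatgtatgcacg
site 2 C7A, GATA strand printed: gtatgcgtTataacgtatgtatgcacg
site 2 T6C, GATA strand printed: gtatgcgtgGtaacgtatgtatgcacg

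Among the listed sites, 125 hold GATATC, which reads GATA on both strands, and 16 hold GATC. The first 3 of those below had the highest 6-4PP signal or the largest gap between the antibodies, the next 4 differ only in the base after GATATC, and the last pair gave one of the largest CPD gaps for 1 base. Capitals mark GATCGATC, GATC or GATATC in each.
GATA_52: atgcacGATCGATCgtatgtatgcacg
GATA_65_rev: atgcatcGATCgatgtatgtatgcacg
GATA_57: tatgcacccGATCggtatgtatgcacg
GATA_41_rev: tatgcacGATATCagtatgtatgcacg
GATA_37_rev: tatgcacGATATCcgtatgtatgcacg
GATA_1_rev: tatgcacGATATCggtatgtatgcacg
GATA_11_rev: tatgcacGATATCtgtatgtatgcacg
GATA_70: tatgcattGATATCgtatgtatgcacg
GATA_55_rev: tatgcatgGATATCgtatgtatgcacg

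Arrays that share a replicate number and a UV condition were not independent in these files. Over all 122095 probes, the difference between replicate 2 and replicate 1 with the CPD antibody correlated with the same difference with the 6-4PP antibody at r = 0.765 on Non-UV arrays and r = 0.707 on UV arrays, and at r between -0.00323 and 0.000791 across UV conditions. Over the 350 GATA probes, the Non-UV arrays numbered 1 of the 2 antibodies correlated at r = 0.714 and those numbered 2 at r = 0.743, while the 2 Non-UV replicates of the CPD antibody correlated at 0.0654 and those of the 6-4PP antibody at 0.0218. These are correlations across probes, which share the arrays and are not replicates. The 2 UV arrays correlated at 0.981 for CPD and 0.983 for 6-4PP. The labels do not say whether an array was stained with both antibodies, so p-values below measure only the spread between arrays, which may be technical, and those for the difference between antibodies rest on arrays that may not be separate.

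UV light raised the staining of nearly all GATA probes. With the CPD antibody the median GATA probe gave an adjusted intensity of 1236 and 1051 on the Non-UV arrays and 2274 and 2218 on the UV arrays, a median rise of 1.95-fold. For 6-4PP the corresponding medians were 1554 and 1294 without UV and 6802 and 6876 after it, a median rise of 4.64-fold. The 2 UV readings exceeded the 2 Non-UV readings in 346 of 350 GATA probes with CPD, against 97.4% of all probes on the array, and in 350 of 350 with 6-4PP, against 97.8%. The 4 probes that overlapped with CPD, named here after their values were seen, were GATA_19, GATA_77_rev, and the T4C change of site 2 and A1C change of site 3 on the GATA strand.

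The rise was smaller than that of the array's median probe with CPD and near it with 6-4PP. The array's median probe rose 3.14-fold with CPD and 4.86-fold with 6-4PP, and all further values are relative UV effects: the log2 ratio of UV to Non-UV after each array was centred on its median probe, so that 0 is the rise of the median probe. A probe called lower therefore rose less than the median probe, and was not dimmer than without UV. The median relative effect of the 350 GATA probes was -0.69 with CPD, beside -0.03 for all probes, and -0.07 with 6-4PP, beside -0.05. A dipyrimidine step is a pair of adjacent pyrimidines on either strand, and 338 of the 350 GATA probes have 2 to 5 of them. The 73494 probes of the array with 2 to 5 steps had medians of -0.31 with CPD and -0.42 with 6-4PP, so beside these the GATA median was lower with CPD and higher with 6-4PP; the medians were not tested against each other. In limma's fit over all probes, with Benjamini-Hochberg adjusted p under 0.05 as the threshold, 318 of 350 GATA probes were past it with CPD, where 79.7% of all probes were. Of these 86 were higher, where 39.5% of all probes were, and 232 were lower, where 40.2% were. With 6-4PP 233 of 350 were past it, against 76.4% of all probes, with 102 higher (36.4% of all) and 131 lower (39.9% of all). The difference of the relative effects, CPD minus 6-4PP, was past the threshold in 231 probes, against 51.7% of all, with 87 on the CPD side (33.6% of all) and 144 on the 6-4PP side (18.1% of all). Without the centring, 340 of 350 GATA probes were higher with CPD, against 92.0% of all probes, and 350 with 6-4PP, against 96.0%. The difference without it had 15 GATA probes on the CPD side (6.58% of all probes) and 189 on the 6-4PP side (27.9% of all). The standard error of a relative effect had a median of 0.0951 and a maximum of 0.387 over the members.

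The antibodies did not sort the GATA probes alike. There were 47 probes higher with both antibodies (26.9% of all probes on the array were) and 93 lower with both (26.7% of all). Another 51 probes were lower with CPD and higher with 6-4PP (5.78% of all), and 19 were higher with CPD and lower with 6-4PP (5.09% of all). The 350 pairs of relative effects correlated at r = 0.273 and those of all 122095 probes at r = 0.668, values across probes of shared design and shared arrays.

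TT steps divided the probes with the CPD antibody. A TT step was present on some strand of 163 GATA probes (46.6%, against 65.1% of all probes), and TC on 318 (90.9%, against 75.8%). The 187 probes without TT on either strand had median CPD intensities of 1981 and 1915 on the UV arrays, and their relative effects ran from -1.47 to -0.43 with a median of -0.88. Of these, 185 were lower; the other 2, GATA_97 and the A8C change of site 3 on the pyrimidine strand, were not past the threshold. The 69 probes with a single TT on the printed strand and none on the complement had median UV intensities of 6507 and 6000, a median relative effect of 0.72, and 65 were higher; the other 4 were not past the threshold. The 70 probes with a single TT on the complement alone had median UV intensities of 3046 and 2800 and a median relative effect of -0.30, with 4 higher and 43 lower. The 42570 probes of the array without TT on either strand had a median of -0.96, near that of the 187. The 550 probes of the array with no dipyrimidine step at all had a median of -1.14.

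With 6-4PP the medians of these classes also differed by strand, but TT did not separate high from low. The 187 probes without TT had median 6-4PP UV intensities of 7225 and 7188, a median relative effect of 0.00, and 52 higher against 54 lower. The 42570 probes of the array without TT had a lower 6-4PP median, -0.78, and the medians were not tested against each other. A single TT on the printed strand went with a median of 0.41, with 36 higher and 15 lower. A single TT on the complement went with a median of -0.69, with 6 higher and 49 lower.

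The bases beside a printed TT went with both signals. Among the 69 probes, the 6 that read ATTA had median relative effects of 1.65 with CPD and 1.31 with 6-4PP, and the 5 that read ATTG had 1.24 and 0.96. The 18 that read CTTA had 0.82 and 0.95, and the 5 that read CTTG had 0.39 and 0.46. The 30 that read GTTA had 0.66 with CPD but -0.18 with 6-4PP, and the 3 that read GTTG had 0.09 and -0.74. All ATTA, ATTG and CTTA probes were higher with both antibodies, whereas of the GTTA probes 29 of 30 were higher with CPD and 2 higher and 12 lower with 6-4PP. The 4 GTTA probes without any TC step had a 6-4PP median of -1.23 and a range from -1.49 to -1.06, while their CPD median was 0.71. The 26 GTTA probes with TC had a 6-4PP median of -0.15, but reached down to -1.34. These are medians of small classes of overlapping designs and were not tested.

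The strand that carried GATA followed the same division. In the 64 probes with GATA on the complement, so that TATC was printed, the median relative effects were 0.66 with CPD and 0.26 with 6-4PP. In the 69 probes with GATA on the printed strand they were -0.38 and -0.75. In the 133 listed probes with GATA on both strands they were -0.85 and 0.07, and in the 84 probes with GATA on neither strand -0.39 and -0.35. By core, the 24 TGATAA probes had medians of 0.51 and -0.05, the 29 AGATAA probes 0.08 and -0.51, the 20 TGATAG probes -0.73 and 0.03, and the 4 AGATAG probes -0.93 and -0.96. These core classes mix both orientations. The 5 listed AGATAA probes with GATA on the complement had a CPD median of 0.65, and the 6 with GATA printed had -0.36. The cores that end in AA hold TT on the opposite strand and those that end in AG do not.

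Site 1, CCTTATCTG on the pyrimidine strand, holds a TT and a TC. Its unmutated probe, a single spot with the pyrimidine strand printed, read 1353 and 1019 without UV and 7817 and 10166 with UV by the CPD antibody, and 1726 and 1320 against 15044 and 16335 by the 6-4PP antibody. Its relative effects were 1.27 ± 0.18 (SE; 2 arrays a group) with CPD and 1.10 ± 0.18 with 6-4PP. In this orientation all changes at positions 1, 2, 6, 7, 8 and 9 stayed between 0.69 and 1.95 with CPD. Those at positions 6 and 7 remove the TC, and their 6-4PP effects lay between 0.58 and 1.00. They were not past the threshold against the unmutated probe with either antibody. Changes of the first T of TT lay below the median rise with both antibodies. T3A, T3C and T3G gave relative CPD effects between -1.09 and -0.79 and 6-4PP effects between -0.87 and -0.78. Set against the unmutated probe within each array, they were at -2.36 to -2.06 with CPD and at -1.97 to -1.88 with 6-4PP on the log2 scale, with limma adjusted p between 0.000425 and 0.00114. Of the 23 changes that could be set against the unmutated probe, 8 were lower with CPD and 10 with 6-4PP, and the others were not past the threshold. These were the changes of positions 3, 4 and 5, without A5T for CPD, and C2G for 6-4PP.

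Position 2 of site 1 precedes the TT, and 1 of its 3 changes, C2G, differed between the antibodies against the unmutated probe. C2A, which makes ATTA, read 13134 and 11985 on the UV arrays with CPD and 17432 and 17925 with 6-4PP, with relative effects of 1.81 ± 0.08 and 1.32 ± 0.08. C2G, which makes GTTA, read 7141 and 6678 with CPD but 4453 and 4696 with 6-4PP, with relative effects of 0.92 ± 0.08 and -0.64 ± 0.08. Their Non-UV intensities lay between 1033 and 1634. C2G thus stood above the median rise with CPD and below it with 6-4PP, and the difference of 1.56 between the antibodies was past the threshold in limma's fit (adjusted p = 0.000317). Against the unmutated site C2G was past the threshold with 6-4PP (-1.74 ± 0.19, limma adjusted p = 0.00128) and not with CPD, and the antibodies differed by 1.38 ± 0.27 (limma adjusted p = 0.0237). C2A and C2T were not past the threshold against the unmutated site with either antibody or for the difference; C2T had relative effects of 1.09 with CPD and 0.39 with 6-4PP.

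Site 2, CGTTATCAC, already has a G before its TT. Its unmutated spot in the pyrimidine orientation read 10393 and 4516 on the UV arrays with CPD and 27943 and 5095 with 6-4PP, too far apart for use (SE 0.75). The unmutated probe with the GATA strand printed read 2806 and 2684 with CPD and 3716 and 3598 with 6-4PP on the UV arrays, with relative effects of -0.30 ± 0.11 and -0.94 ± 0.11. Among the 27 changes with the pyrimidine strand printed, the CPD effects ran from -0.87 to 2.24, with 20 higher and 5 lower, and the 6-4PP effects from -1.49 to 1.38, with 10 higher and 8 lower.

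The TC of site 2 lies at positions 6 and 7. Changes that remove it without making a printed TT were high with CPD and low with 6-4PP when the pyrimidine strand was printed. T6A, T6C and T6G with the pyrimidine strand printed gave relative CPD effects between 0.90 and 0.97 and 6-4PP effects between -1.49 and -1.06. T6G read 6677 and 6234 on UV arrays with CPD and 2239 and 2332 with 6-4PP, beside 1211 and 1006, and 1535 and 1144, on the Non-UV arrays. C7A and C7G gave 0.79 and 0.60 with CPD and -1.32 and -1.34 with 6-4PP. The 3 changes of position 5 in this orientation keep the TC. Their 6-4PP effects lay between -1.33 and -0.49 and their CPD effects between -0.01 and 0.77. C7T, which replaces TC by another TT, was the highest member with CPD. It read 18446 and 15087 on UV arrays against 1247 and 1017 without UV, a relative effect of 2.24 ± 0.09, and 14574 and 13788 with 6-4PP against 1564 and 1233, a relative effect of 1.07 ± 0.09. The same change gave 1.95 ± 0.09 with CPD in site 1 and 1.72 ± 0.08 in site 3, both among the 5 highest members.

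Changes of the TT of site 2 with the pyrimidine strand printed, other than T4A, were low with CPD and at or above the median rise with 6-4PP. T3A, T3C and T3G gave relative CPD effects between -0.81 and -0.56 and 6-4PP effects between 0.20 and 0.42, of which that of T3G was not past the threshold. T4C gave -0.82 and 0.86. T4A, which places a TT on the complement, was higher with both antibodies, at 0.30 and 0.39. T4G, which makes the self-complementary ACGTGATCACGT, read 2188 and 2043 on UV arrays with CPD against 1202 and 1257 without UV. It read 13977 and 13958 with 6-4PP against 1440 and 1424. Its relative effects were -0.87 ± 0.14 and 1.01 ± 0.14, a difference of -1.87. The T4G probe with the GATA strand printed, which holds CGTGATCACG, gave -0.85 and 0.85. The position 3 changes with the GATA strand printed had lower 6-4PP effects, between -1.06 and -0.32. G2A with the pyrimidine strand printed makes ATTA and was high with both antibodies. It read 11741 and 10553 with CPD and 18891 and 20081 with 6-4PP on UV arrays. Its relative effects were 1.54 ± 0.10 and 1.38 ± 0.10, the latter the highest of any variant.

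With the GATA strand of site 2 printed, most changes stayed below the median rise with both antibodies (19 of 27 lower with CPD, 21 of 27 with 6-4PP). The changes that were higher with CPD were T4A, T6A, C7A and C9A, and those higher with 6-4PP were T4A, T4G and C9A. Of the 23 changes that could be set against the unmutated probe, 3 were higher with CPD (T4A, T6A and C7A) and 6 lower. With 6-4PP 3 were higher than the unmutated probe (T4A, T4G and G2A) and 7 lower. T4A places ATTA on the printed strand and read 13137 and 13212 on UV arrays with CPD against 1184 and 1051 without UV, and 17204 and 16389 with 6-4PP against 1414 and 1382. Against the unmutated probe it was higher by 2.21 ± 0.12 with CPD (limma adjusted p = 0.000322) and by 2.25 ± 0.12 with 6-4PP (limma adjusted p = 0.000503). T4G was higher than the unmutated probe by 1.79 ± 0.13 with 6-4PP (limma adjusted p = 0.000521). With CPD it was lower, at -0.55 ± 0.13 (limma adjusted p = 0.0255). The other changes at this position made the 2 largest CPD gaps among all 1-base pairs of the family: T4C stood at -3.39 ± 0.23 and T4G at -2.76 ± 0.13 relative to T4A (limma adjusted p = 0.000347 and 0.000322). With 6-4PP the same gaps were -2.09 ± 0.23 and -0.46 ± 0.13 (limma adjusted p = 0.00128 and 0.0348), and both gaps differed between the antibodies (limma adjusted p = 0.0471 and 0.00805).

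The changes of site 2 gave the 5 largest differences toward CPD. C7A with the GATA strand printed had 8188 and 6817 on UV arrays with CPD and 3046 and 2539 with 6-4PP, a difference of relative effects of 2.49 ± 0.16. T6G with the pyrimidine strand printed had 2.39 ± 0.12. T6A had 2.33 ± 0.17 with the GATA strand printed and 2.26 ± 0.15 with the pyrimidine strand printed, and C7A with the pyrimidine strand printed had 2.11 ± 0.22. The limma adjusted p for these 5 lay between 0.000281 and 0.000643. All 5 read GTTA on the printed strand and have lost the TC of the site. The 5 lowest members with 6-4PP were changes of positions 5 or 6 with the GATA strand printed: A5G at -1.79, T6C at -1.79, T6G at -1.66 and A5T at -1.63 in site 2, and A5G at -1.70 in site 3. Those of position 5 keep the TC on the complement, and those of position 6 have lost it. T6C read 1971 and 2004 on the UV arrays against 1517 and 1312 without UV, the smallest UV intensities of the family with 6-4PP. The 550 probes with no dipyrimidine step had a median of -1.78 with this antibody.

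Site 3, ACCTATCAC, has a TC but no TT, and its unmutated probe differed between the antibodies. With the pyrimidine strand printed it read 2823 and 2634 on the UV arrays with CPD and 9896 and 10790 with 6-4PP, against 1340 and 1019, and 1704 and 1160, without UV. Its relative effects were -0.43 ± 0.12 and 0.60 ± 0.12, and the difference of -1.03 was past the threshold (limma adjusted p = 0.00327). In this orientation 4 of 27 changes were higher with CPD, and each of the 4 places a TT on a strand: C3T, A5T and C7T at 1.01, 1.08 and 1.72 on the printed strand, and C9A at 0.42 on the complement. Of the 23 changes that could be set against the unmutated probe in frame, 4 were higher with CPD: C3T by 1.44, A5T by 1.51, C7T by 2.15 and T4A by 0.61 (limma adjusted p between 0.000357 and 0.0289). The other 19 were not past the threshold.

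With 6-4PP, 10 of the 23 changes in this orientation of site 3 were lower than the unmutated probe and 1 was higher. Among the lower were the 5 that remove the TC without making a TT on the printed strand. T6A, T6C and T6G stood at -1.70, -1.54 and -1.71 relative to the unmutated probe, C7A at -2.13 and C7G at -1.70 (limma adjusted p between 0.00075 and 0.00322). A5G, which turns ATC into GTC, stood at -1.78 (limma adjusted p = 0.000745) although the TC was kept. C3G, A8G, A8T and C9T also kept it and stood at -0.75, -0.62, -0.67 and -0.72 (limma adjusted p between 0.0115 and 0.0406). The higher change was C3T, at 0.71 (limma adjusted p = 0.00826). C7T replaced TC by TT and kept a relative 6-4PP effect of 1.06, reading 14554 and 15421 on the UV arrays, and was not past the threshold against the unmutated probe. The largest 6-4PP gaps among 1-base pairs of the family were at this position: C7A against C7T at -2.60 ± 0.15 in site 3, and C7G against C7T at -2.41 ± 0.18 in site 2.

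The 16 listed probes with GATC had low CPD and high 6-4PP signals. GATA_52, which holds GATCGATC, read 2076 and 2020 on UV arrays with CPD against 1235 and 1038 without UV, and 20083 and 20634 with 6-4PP against 1430 and 1229. The groups did not overlap with either antibody, and its relative effects were -0.80 ± 0.09 and 1.66 ± 0.09, the latter the highest 6-4PP effect of all members. GATA_52_rev, with GATCGATC between other flanks, gave 1.55 ± 0.10 with 6-4PP, and GATA_65_rev and GATA_65, which hold ATCGATCGAT, gave 1.59 ± 0.11 and 1.55 ± 0.18. These 4 sequences each have 2 TC steps on each strand and no TT, and they gave 4 of the 5 largest differences toward 6-4PP, between -2.50 and -2.33. The fifth was GATA_57, at -1.90 ± 0.13, which read 1793 and 1721 with CPD and 12128 and 11582 with 6-4PP on the UV arrays. Of the 16 listed probes with GATC, 16 were higher with 6-4PP, with a median of 0.72; with CPD 15 were lower and the other, GATA_97, was not past the threshold, and the median was -0.88. The 12 listed probes that hold no GATA on either strand all hold GATC; all 12 were higher with 6-4PP. GATC also arises in the 6 T4G variants, all of which were lower with CPD, between -0.98 and -0.67. With 6-4PP both orientations of site 2 and the pyrimidine orientation of site 3 were higher, at 1.01, 0.85 and 0.97. The other 3 were not past the threshold, at 0.06 and 0.19 in site 1 and 0.19 in site 3.

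The 125 listed probes with GATATC carry TC on both strands. The 109 of them without TT ranged from -1.42 to -0.50 with CPD, and 109 of 109 were lower. With 6-4PP they ranged from -0.87 to 1.04 with a median of 0.05, and 23 were higher and 21 lower. The 16 with a TT beside GATATC had medians of 0.27 with CPD and 0.49 with 6-4PP. Among the 109, the base after GATATC went with the 6-4PP signal: the medians were 0.18 before A (19 probes), 0.19 before C (21), 0.02 before G (44) and -0.54 before T (25), and 18 of the 21 lower probes had T. The base before GATATC, which pairs with the base after TC on the complement, gave medians between -0.11 and 0.12.

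The largest group of probes linked by 1-base changes has 54 members, and GATA_11_rev is its member with most neighbours, 10 in number. Among these are the probes that differ only after GATATC. With T there, GATA_11_rev read 2278 and 2028 on UV arrays with CPD and 4863 and 4669 with 6-4PP. With A, GATA_41_rev read 2010 and 1916, and 7972 and 7869. With C, GATA_37_rev read 1816 and 1865, and 7644 and 7331. With G, GATA_1_rev read 1697 and 1772, and 6967 and 7161. With 6-4PP GATA_41_rev, GATA_37_rev and GATA_1_rev stood above both UV values of GATA_11_rev, whereas with CPD they stood below them.

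Within arrays, GATA_41_rev, GATA_37_rev and GATA_1_rev stood above GATA_11_rev by 0.75 ± 0.13, 0.64 ± 0.14 and 0.64 ± 0.14 on the log2 scale with 6-4PP (limma adjusted p = 0.00648, 0.0165 and 0.0153), and at -0.19, -0.29 and -0.32 with CPD, where none of the 3 was past the threshold. The antibodies differed in all 3 (limma adjusted p between 0.0235 and 0.0309). GATA_41_rev, GATA_37_rev and GATA_1_rev were not past the threshold against each other with either antibody, and no gap was larger than 0.13. Of the other neighbours, those changed ahead of GATATC, which are GATA_14, GATA_75, GATA_17 and GATA_21_rev, and the one changed at the second base after it, GATA_51_rev, were not past the threshold against GATA_11_rev; their relative effects ran from -1.13 to -0.46 with CPD and from -0.87 to -0.35 with 6-4PP. The site 1 change T3A on the pyrimidine strand, which alters the first base of GATATC, had -0.79 and -0.78 and was not past it either. The site 1 change C2G, which turns GATATC into GTTATC, left GATA_11_rev at -1.64 relative to it with CPD (limma adjusted p = 0.000453) and was not past the threshold with 6-4PP. The CPD and 6-4PP values of GATA_75 rest on replicate 2 of the Non-UV arrays, where it read 1412 and 2361: without that array of the same antibody they were -0.91 (limma adjusted p = 0.0749) and -0.37 (0.123), and other arrays left out also ended one or the other call.

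In most pairs past the threshold, the probe that printed the strand with more pyrimidine steps was higher. There are 178 pairs of GATA probes whose sites are reverse complements, and a pair's value is the log2 difference between the 2 probes within each array. With CPD 85 of 178 pairs were past the threshold, against 41.3% of 2651 such pairs on the array, and with 6-4PP 123 were, against 64.2%. In the 147 pairs with unequal numbers of printed steps, the probe with more printed steps was higher in 73 and lower in 7 with CPD, and higher in 102 and lower in 10 with 6-4PP. Over all 178 pairs in the same order, with the order of equal pairs arbitrary, 75 were higher and 10 lower with CPD, beside 36.7% and 4.6% on the array, and 106 and 17 with 6-4PP, beside 59.0% and 5.24%. In the 31 pairs with equal numbers of printed steps, 5 were past the threshold with CPD and 11 with 6-4PP. The antibodies differed in 40 of 178 pairs, against 24.4% on the array. Without single arrays that last count fell to between 21 and 24 for 5 arrays (either CPD Non-UV array, CPD UV replicate 2 and either 6-4PP UV array).

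The median gaps of the 3 sites are given without a test between sites. In site 1 the median gap of the pyrimidine strand over the GATA strand was 1.10 with CPD and 1.23 with 6-4PP, and in site 2 it was 0.97 and 0.91. In site 3, which lacks TT, it was 0.14 with CPD and 0.92 with 6-4PP, and the antibodies differed in 17 of its 27 pairs. The listed pairs with unequal printed steps had medians of 0.23 and 0.37. The largest CPD gap was that of C7T in site 2, 2.27 ± 0.22, followed by C7T in site 3 (1.89 ± 0.09), A5T in site 3 (1.85 ± 0.10), G9T in site 1 (1.74 ± 0.16) and GATA_47 over its reverse (1.73 ± 0.37). With 6-4PP C7T in site 2 was again first at 1.98 ± 0.22, followed by C2A in site 1 (1.83 ± 0.08), G9T in site 1 (1.80 ± 0.16), C7T in site 3 (1.75 ± 0.09) and G2T in site 2 (1.65 ± 0.09). All 10 values were past the threshold in limma's fit, with adjusted p between 3.17e-05 and 0.00755. GATA_47 read 6597 and 12218 on the 2 UV arrays with CPD, the widest of these, and its reverse 2685 and 2576.

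There are 527 pairs of GATA probes that differ at 1 base, and 133 of them were past the threshold with CPD, against 23.0% of 638307 such pairs on the array, 160 with 6-4PP, against 30.1%, and 131 for the difference between antibodies, against 13.6%. The last count was 45 to 62 when any CPD array or either 6-4PP UV array was left out, and the 6-4PP count was 104 without replicate 2 of the 6-4PP UV arrays. In 92 pairs the change added or removed TT on the printed strand only. The probe with more TT was higher with CPD in 82 and lower in 2, with a median of 1.56, and with 6-4PP higher in 31 and lower in 3, with a median of 0.20. In 94 pairs it changed TT on the complement only, and the probe with more TT was higher with CPD in 43, the other 51 not being past the threshold; with 6-4PP it was higher in 16 and lower in 27.

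With TT held equal, 22 pairs that differ in printed TC were past the threshold with 6-4PP. In 48 pairs TC changed on the printed strand alone: the probe with more TC was higher in 22 with 6-4PP (45.8%, median 0.60) and the other 26 were not past the threshold. With CPD 0 of these 48 were past limma's threshold and 1 had an unadjusted p under 0.05 (median 0.04). In 50 pairs it changed on the complement alone: 11 were higher with 6-4PP (22%, below the 30.1% of all 1-base pairs on the array, median 0.18) and the other 39 were not past the threshold. With CPD 0 of these 50 were past limma's threshold and 0 had an unadjusted p under 0.05. In 235 pairs neither TT nor TC changed, and 2 were past the threshold with CPD and 45 with 6-4PP (19.1%). A pair of listed sites differs in TT on the printed strand: GATA_70 holds a TT step just before GATATC and GATA_55_rev does not. GATA_70 read 9141 and 8039 on UV arrays with CPD and 16177 and 15159 with 6-4PP, and GATA_55_rev read 1754 and 1479, and 5481 and 5074. GATA_55_rev stood at -2.54 ± 0.14 relative to GATA_70 with CPD and at -1.66 ± 0.14 with 6-4PP (limma adjusted p = 0.000322 and 0.000625).

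The lowest CPD members read high on a Non-UV array. T4C of site 2 with the GATA strand printed, the lowest at -1.47 ± 0.26, read 1211 and 1658 without UV and 1655 and 1548 with UV. GATA_19 at -1.42 ± 0.29 read 1373 and 2046 against 2063 and 1867, and GATA_77_rev at -1.35 ± 0.39 read 1216 and 1890 against 1861 and 1882. T3A of site 2 at -1.35 ± 0.26 read 1226 and 1645 against 1801 and 1708, and T4C of site 1 at -1.31 ± 0.20 read 1231 and 1425 against 1689 and 1663, both with the GATA strand printed. In all 5 the Non-UV replicate 2 was the higher of the pair, whereas the median GATA probe read 1051 there. GATA_77_rev was not past the threshold when that array was left out (-0.91, limma adjusted p = 0.0858) or when either CPD UV array was left out.

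The RUNX and ETS1 designed probes, picked by name in the same way, had other medians. The 194 RUNX probes had a median relative effect of -0.01 with CPD and -1.16 with 6-4PP, and 150 of them were past the threshold on the CPD side of the difference and 2 on the 6-4PP side. The 1820 ETS1 probes had medians of -0.58 and -0.40, with 641 on the CPD side and 457 on the 6-4PP side. The 350 GATA probes had 87 (24.9%) and 144 (41.1%). Of all probes on the array, 33.6% were on the CPD side and 18.1% on the 6-4PP side. The families share arrays and may share some sequences, and these counts were not tested against each other.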

How the data were processed

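Each array's deposited file holds spot intensity on a linear scale, per the file headers. The adjusted intensity equalled the authors' normalised column, itself the unsubtracted scanner reading, divided by the local median and scaled by an array-wide constant; this was checked on every spot with a sequence. The sources used here name no software. No spot was flagged (0 spots), and 0 to 4 GATA spots an array lay at the scanner ceiling of 65535.

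Log2 adjusted intensity was averaged over the spots of one sequence (R 4.3.3, Python 3.11.15) and centred on the median of 122095 sequences. UV and Non-UV arrays were compared with limma 3.58.1 (lmFit, eBayes) in 1 fit over all 8 arrays, and p-values were adjusted over all sequences, or over all pairs on the array for within-array differences of pairs. Pairs were matched by sequence, since 4 listed names have crossed reverse names. The fits were checked on simulated data with independent noise on each array, for each antibody and not for their difference. That check does not cover arrays that deviate together. Named are, past the threshold, the 5 highest and 5 lowest probes for each antibody (centred UV values on one side of both centred Non-UV values) and for their difference, the 5 largest pairs of each kind, and the best-connected probe of the largest linked group with its neighbours. Probes described to fill out a site or a class were added after their values were seen. The members and classes were chosen with earlier results of these data known. The median spread (SD) between spots of one member was 0.106 to 0.236 in log2 units, depending on the array. Precision is limited by 2 arrays a group.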

Additional observations from a re-analysis of the deposited data

Results flagged for a closer look

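In 28 named probes and pairs the relative UV effect differed between the antibodies by limma's interaction test (adjusted p under 0.05). The count is a list and not a rate. C7A and T6A of site 2 in both orientations and its T6G with the pyrimidine strand printed were named by this same test. So were GATA_65_rev, GATA_52, GATA_65, GATA_52_rev and GATA_57, and their passing was fixed by that choice. Past the same threshold were 51.7% of all probes, 66.0% of GATA probes and 13.6% of all 1-base pairs on the array. In probes the difference, CPD minus 6-4PP in log2, was 1.17, 0.95 and 0.66 for C7T of sites 2, 1 and 3, 0.49 for C2A and 1.56 for C2G of site 1, all with the pyrimidine strand printed. In site 2 it was 2.39 for T6G, 2.26 for T6A and 2.11 for C7A in that orientation. With the GATA strand of site 2 printed it was 2.49 for C7A, 2.33 for T6A, 1.46 for T6G, 1.44 for T6C, 1.05 for A5T, 0.98 for A5G and 0.61 for T4A. A5G of site 3 had 0.51. Without centring the differences of C2A of site 1, T4A of site 2 and A5G of site 3 changed sign, to -0.14, -0.025 and -0.12. On the 6-4PP side, GATA_65_rev, GATA_52, GATA_65, GATA_52_rev and GATA_57 had -2.5, -2.46, -2.43, -2.33 and -1.9. GATA_1_rev, GATA_41_rev, GATA_37_rev and GATA_51_rev had -1.11, -1.09, -1.07 and -0.4. Among the 1-base pairs, with the GATA strand of site 2 printed, T4G against T4A had -2.3 and T4C against T4A had -1.3, and GATA_55_rev against GATA_70 had -0.88. Same-numbered arrays of the antibodies deviate together, and the part of this in the differences was tested only by adding the number within each UV condition to the fit.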

How the results depend on the processing

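Depth here is signal over the Non-UV arrays, and 2 arrays a group limit all values. The direction of GATA probes depends on centring: without it 340 of 350 were higher with CPD and 350 with 6-4PP, none lower, and the difference had 15 on the CPD side and 189 on the 6-4PP side. Values that changed sign without centring were, in log2 with CPD, 0.18, 0.23, 0.30, 0.30 and 0.34 for the 5 lowest CPD probes (T4C of site 2, GATA_19, GATA_77_rev, T3A of site 2 and T4C of site 1, GATA strand printed). With 6-4PP they were 0.49, 0.49, 0.58, 0.62 and 0.65 for its 5 lowest. In the linked set they were 0.93 and 1.71 (CPD and 6-4PP) for GATA_11_rev, 1.19 and 1.86 for GATA_14, 0.86 and 1.5 for T3A of site 1, 0.90 and 1.93 for GATA_51_rev, 0.52 and 1.41 for GATA_75, 0.76 and 1.61 for GATA_17, and 0.65 and 1.63 for GATA_21_rev. CPD alone changed sign for GATA_41_rev (0.74), GATA_37_rev (0.64) and GATA_1_rev (0.61), and 6-4PP alone for C2G of site 1 (1.64). Of 231 probes past the threshold for the difference, 26 changed sign without centring, among them T4A of site 2 (-0.025), C2A of site 1 (-0.14) and A5G of site 3 (-0.12).

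Quantile normalization, which removes the difference between UV and Non-UV distributions, left 13 probes past the threshold with CPD, 8 with 6-4PP and 0 for the difference, and 0 pairs of any kind. In limma's fit at an unadjusted p under 0.05 these were 99, 71 and 43 probes, 27, 32 and 2 orientation pairs, and 59, 37 and 15 1-base pairs. It turned the signs of GATA_14 with CPD (0.12) and of GATA_41_rev (-0.23) and GATA_37_rev (-0.41) with 6-4PP. With the unadjusted column 66 1-base pairs differed between antibodies. Orientation pairs that differed numbered 81 with medians over spots and 21 without the dimmest 25 percent. With the 6-4PP arrays alone 94 1-base pairs were past the threshold. GATA_1_rev with 6-4PP ran from -0.012 to 0.14 when each array was left out, below 0 without 6-4PP Non-UV replicate 1.

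With the replicate number as a block, 318, 235 and 232 probes, 87, 129 and 50 orientation pairs and 133, 163 and 135 1-base pairs were past the threshold; no call of a named value changed. Replicates deviated together within a UV condition and not across it, so the numbers do not pair UV with Non-UV arrays. A block of the number within each UV condition, chosen after seeing the data, gave 311, 233 and 248 probes, 101, 141 and 88 orientation pairs and 134, 160 and 175 1-base pairs. Leaving out each array in turn gave 282 to 319, 205 to 230 and 198 to 219 probes, 75 to 85, 104 to 122 and 21 to 41 orientation pairs, and 101 to 135, 104 to 143 and 45 to 110 1-base pairs (CPD, 6-4PP and difference). Of 1328 alternative values of 72 named effects, 1215 kept direction and side of the threshold, 77 lost the call, 4 gained it and 32 changed sign.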
